A study of Mus musculus with 15 samples.

Results

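The genes described here are 40 core genes of the cell division cycle. They were listed by symbol and by function, with earlier results of these data known. The genes are cyclins, cyclin-dependent kinases (CDKs), CDK inhibitors, E2F transcription factors, MCM helicase and origin licensing genes, and genes of DNA synthesis and mitosis. They were read in red cell precursors and other cells of the mouse fetal liver with and without the transcription factor KLF3. Of the 40 genes, 38 were measured among 19938 genes with a probe set of their own. Ccnb1 had no probe set with a single gene symbol, and Cdkn1a shared its probe set with other symbols, so both are not analysed here.

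RNA came from livers of FVB/NJ mouse embryos at E14.5, in midgestation, and was hybridised to Affymetrix MoGene 1.0 ST arrays. Cells had been separated with magnetic beads against TER119, a surface antigen gained by maturing red cell precursors. TER119+ cells were kept by positive selection on MS columns, and TER119- cells were what remained after depletion on LD columns. There were 3 Klf3 knockout (KO) TER119+ arrays, 4 wild-type (WT) TER119+ arrays, 4 KO TER119- arrays and 4 WT TER119- arrays. All values are on a log2 scale, where a difference of 1 is a doubling, and differences are given as KO minus WT or as TER119+ minus TER119-.

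In the cell cycle, D-type cyclins with CDK4 and CDK6 act in G1, cyclin E with CDK2 at the start of DNA replication, and cyclins A and B with CDK1 at mitosis. Inhibitors of the INK4 and KIP families hold the kinases back, and E2F factors control the transcription of replication genes. Red cell precursors divide quickly, then leave the cycle and expel the nucleus, so both the engines and the brakes of the cycle are used in this lineage. KLF3 is a zinc finger protein that represses genes with CACCC-type sequences in their control regions.

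The Klf3 probe set did not separate the genotypes. It read 10.55, 10.34 and 10.52 on KO TER119+ arrays, against 10.37, 9.94, 10.50 and 10.08 on WT TER119+ arrays, and 8.02, 8.49, 8.74 and 8.09 on KO TER119- arrays, against 8.80, 8.22, 8.55 and 7.94 on WT TER119- arrays. The deleted stretch of Klf3 is not named in the labels, so this probe set checks nothing, and the genotypes are as labelled. The mean of 3 genes reported to be repressed by KLF3 (Klf8, Lgals3 and C1qtnf12) lay between 9.07 and 9.11 on KO TER119+ arrays, against 5.89 to 6.02 on WT TER119+ arrays.

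The 2 populations differed in more than their red cell content. The mean of 17 erythroid markers was 11.29 to 11.45 on TER119+ arrays, against 7.69 to 8.55 on TER119- arrays. The mean of 18 hepatocyte markers was 10.75 to 11.43 on TER119+ arrays, against 5.65 to 8.0 on TER119- arrays. The mean of 12 macrophage markers was 7.87 to 8.31 on TER119+ arrays, against 5.43 to 5.73 on TER119- arrays. For 12 genes of neutrophils and their precursors the mean was 5.02 to 5.72 on TER119+ arrays, against 9.48 to 10.14 on TER119- arrays, and for 13 progenitor markers it was 5.93 to 6.06 against 6.95 to 7.46. The differences between TER119+ and TER119- arrays below are therefore differences between mixtures: fewer cells of a type and less RNA per cell cannot be told apart in them, and the part of each cell type was not tested.

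Promoter windows from RefSeq (build GRCm38.p6, 250 bases before to 50 bases after the annotated start of each gene) were found for 33 of the 40 genes. They were searched on both strands for 4 kinds of sequence known from cell cycle genes and from KLF proteins. The E2F motifs TTTCCCGC, TTTGGCGC and TTTCGCGC were present in 9 of the 33 genes (27.3%), against 2.12% of 27025 genes in the table. The cell cycle homology region TTTGAA, the element through which mitotic genes are held off outside G2 and mitosis, was present in 11 of 33 (33.3%), against 20.2% of all genes. The CCAAT box, written CCAAT, was present in 25 of 33 (75.8%), against 41.1% of all genes. The KLF motif CCACACCC was present in 1 of 33, in Cdk4 (3.03%), against 4.09% of all genes. A match is a description of the letters and not a binding site.

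The 160 bases before the start are shown for genes that the results below turn on, with every match to these motifs in capitals. Mcm5 and Mcm6 are shown for their paired E2F matches, Cdk1, Mki67 and Top2a for the cell cycle homology region, E2f2 and Cdc25b as the genes with the largest measured differences between the populations, and Orc1 and Ccng2 as the cell cycle genes that differed between the genotypes.
Mcm5: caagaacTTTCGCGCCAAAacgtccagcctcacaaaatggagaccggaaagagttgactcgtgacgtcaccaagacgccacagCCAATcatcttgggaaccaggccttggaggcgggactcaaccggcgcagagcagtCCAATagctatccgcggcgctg
Mcm6: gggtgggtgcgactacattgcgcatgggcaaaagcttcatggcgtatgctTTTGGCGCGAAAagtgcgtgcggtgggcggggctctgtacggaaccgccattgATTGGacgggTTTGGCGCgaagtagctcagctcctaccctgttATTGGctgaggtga
Cdk1: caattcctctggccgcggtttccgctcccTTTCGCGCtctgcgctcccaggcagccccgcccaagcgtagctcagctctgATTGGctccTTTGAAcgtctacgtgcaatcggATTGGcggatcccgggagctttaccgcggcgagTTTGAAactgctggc
Mki67: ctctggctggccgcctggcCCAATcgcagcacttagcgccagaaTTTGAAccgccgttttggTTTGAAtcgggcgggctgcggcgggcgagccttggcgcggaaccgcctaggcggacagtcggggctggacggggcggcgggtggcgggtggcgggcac
Top2a: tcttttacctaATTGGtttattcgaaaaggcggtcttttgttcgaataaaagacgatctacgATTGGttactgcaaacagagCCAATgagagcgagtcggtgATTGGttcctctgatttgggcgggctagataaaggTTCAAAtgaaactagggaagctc
E2f2: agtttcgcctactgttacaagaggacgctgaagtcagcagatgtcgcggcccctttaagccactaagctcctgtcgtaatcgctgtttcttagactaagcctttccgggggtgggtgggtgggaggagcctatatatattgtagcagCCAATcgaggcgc
Cdc25b: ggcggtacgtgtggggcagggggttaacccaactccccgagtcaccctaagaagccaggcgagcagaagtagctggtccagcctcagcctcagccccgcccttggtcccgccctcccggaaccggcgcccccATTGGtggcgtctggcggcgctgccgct
Orc1: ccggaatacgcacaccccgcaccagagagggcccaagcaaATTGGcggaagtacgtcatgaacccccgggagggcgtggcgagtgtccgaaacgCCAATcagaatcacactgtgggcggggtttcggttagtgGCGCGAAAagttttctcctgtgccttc
Ccng2: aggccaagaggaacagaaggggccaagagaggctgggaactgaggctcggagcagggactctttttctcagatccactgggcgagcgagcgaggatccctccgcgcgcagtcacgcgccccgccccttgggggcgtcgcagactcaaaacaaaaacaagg
These stretches lie at chr8:75109349-75109508 on the plus strand for Mcm5, chr1:128359706-128359865 on the minus strand for Mcm6, chr10:69352913-69353072 on the minus strand for Cdk1, chr7:135716380-135716539 on the minus strand for Mki67 and chr11:99024190-99024349 on the minus strand for Top2a. For E2f2 the stretch is chr4:136172114-136172273 on the plus strand, for Cdc25b chr2:131186788-131186947 on the plus strand, for Orc1 chr4:108579294-108579453 on the plus strand and for Ccng2 chr5:93267413-93267572 on the plus strand.

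In Mcm5 the capitals TTTCGCGCCAAA hold 2 E2F motifs on opposite strands that share bases, and in Mcm6 the capitals TTTGGCGCGAAA do the same, with a further TTTGGCGC nearer the start. Cdk1 carried both an E2F motif and TTTGAA at 2 places, the nearer of them 15 to 10 bases before the start. Top2a carried TTTGAA on the opposite strand 23 to 18 bases before its start. E2f2 has 2 annotated starts, and the E2F match of the start shown lies 40 to 47 bases after it, outside the stretch. Ccng2 held none of the motifs in its window, and Orc1 held TTTCGCGC on the opposite strand 27 to 20 bases before its start and 2 CCAAT boxes.

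**Figure D1:**
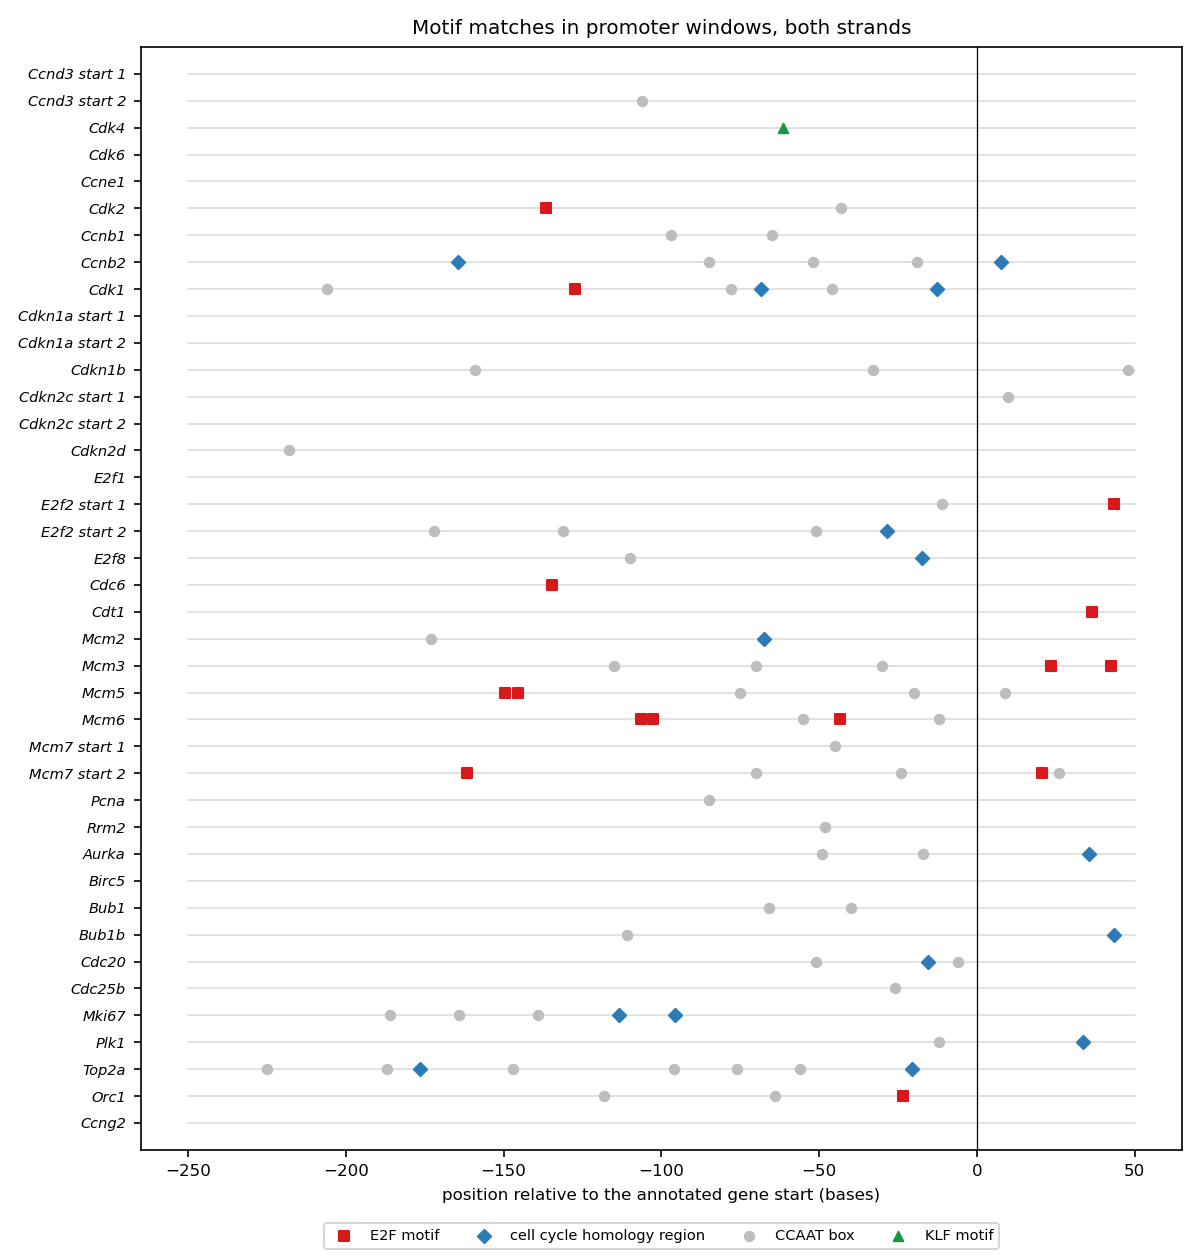
Positions of motif matches (marker at the centre of each match) in the promoter windows of the 33 cell cycle genes found in the table and of Orc1 and Ccng2, relative to the annotated start at 0, in bases; genes with 2 annotated starts have 2 rows. The 9 genes with an E2F match (squares) among the 33 include 4 MCM genes, Orc1 has an E2F match as well, and the KLF motif (triangle) occurs only in the window of Cdk4.

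The first question was how the cell cycle genes differed between the TER119+ and TER119- cells. Most were higher in TER119+ cells, in both genotypes, and the largest measured differences were those of E2f2, Cdc25b and the CDK inhibitor genes Cdkn2d and Cdkn1b. In KO arrays 30 of the 38 genes passed the threshold (adjusted p under 0.05, limma with Benjamini-Hochberg adjustment over all genes), 25 higher and 5 lower, where 49% of all genes passed (22.6% higher, 26.5% lower). In WT arrays 30 also passed, 25 higher and 5 lower, where 52.6% of all genes passed (23.5% higher, 29.1% lower). These were the same 30 genes in the same direction, from comparisons that share no array. The TER119+ and TER119- arrays did not overlap for any of the 30 in either genotype, where 56.1% of all genes did not overlap in KO and 45.6% in WT arrays. The median difference of the 38 genes was 0.84 in KO and 0.98 in WT arrays, beside -0.06 and -0.09 for all genes. Without 3 TER119- arrays that stand apart from the others (KO replicate 4 and WT replicates 2 and 4) the WT median was 0.63. The mean level of the 38 genes was 9.93 to 10.00 on KO TER119+ and 9.81 to 9.97 on WT TER119+ arrays, against 8.67 to 9.08 on KO TER119- and 8.46 to 8.99 on WT TER119- arrays.

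**Figure D2:**
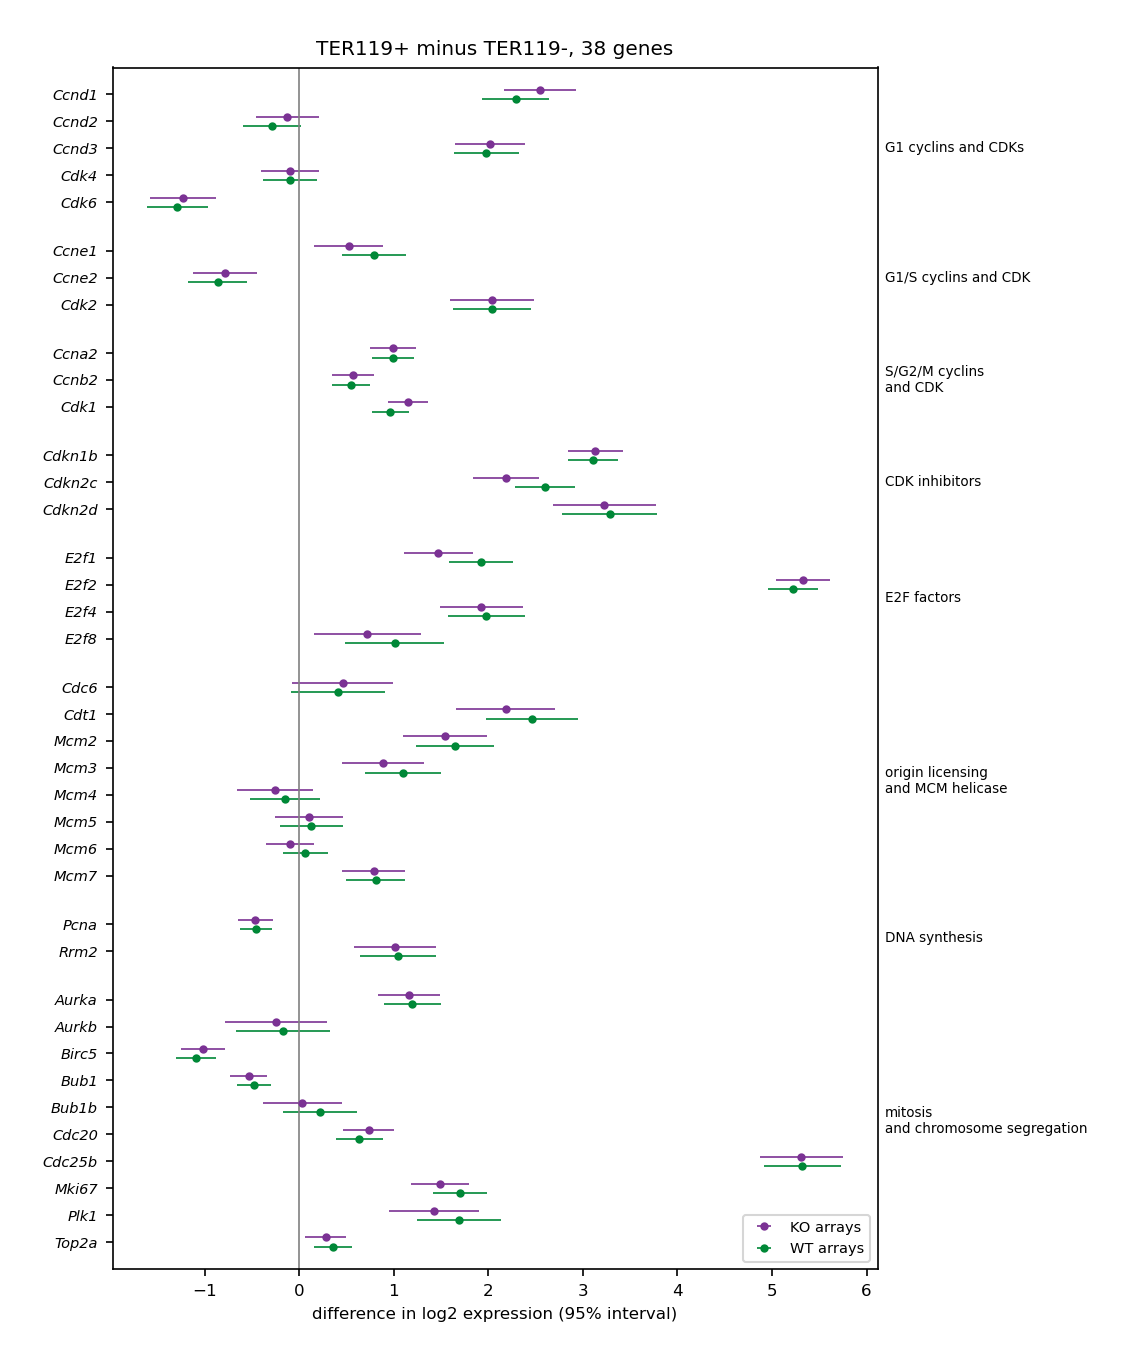
Difference in log2 expression, TER119+ minus TER119- (x axis), for each of the 38 genes grouped by role, with the 95% interval of the limma fit, in KO arrays and in WT arrays. E2f2 and Cdc25b lie above 5, the 3 CDK inhibitors between 2.19 and 3.28, and 5 genes (Cdk6, Ccne2, Pcna, Birc5 and Bub1) lie below 0 with intervals that do not reach it.

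All 4 measured E2F genes rose. E2f2, an E2F of the activating class that takes part in red cell maturation in mice, showed the largest difference of the 4. Its level was 10.98, 10.91 and 10.88 on KO TER119+ arrays and 10.56, 10.44, 10.53 and 10.27 on WT TER119+ arrays, against 5.73, 5.60, 5.79 and 5.26 on KO TER119- arrays and 5.22, 5.48, 5.24 and 4.98 on WT TER119- arrays. The 2 populations were far apart. The TER119- levels were close to the median of all probe sets on an array (5.28 to 5.43), so they are not shown to lie above background, and a difference measured from them can understate the true one. The difference was 5.33 (SE 0.14, adjusted p = 4.56e-14) in KO and 5.22 (SE 0.13, adjusted p = 1.69e-14) in WT arrays. E2f4, an E2F that mostly represses with pocket proteins and is needed for fetal erythropoiesis in mice, was higher by 1.93 (SE 0.21) and 1.98 (SE 0.19). E2f1, the best known activator, was higher by 1.47 (SE 0.17) and 1.92 (SE 0.16) in KO and WT arrays. E2f8, an atypical repressing E2F, was higher by 0.72 (SE 0.27, adjusted p = 0.0339) in KO and by 1.01 (SE 0.25, adjusted p = 0.00244) in WT arrays. The call for E2f8 in KO arrays held in 19 of 25 alternative settings.

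The CDK inhibitors rose together, 3 of 3 measured. Cdkn1b encodes p27, which binds CDK2 with cyclin E or A. Its level was 9.71, 9.88 and 9.87 on KO TER119+ arrays and 9.98, 9.59, 10.06 and 9.69 on WT TER119+ arrays, against 6.80, 6.42, 6.82 and 6.72 on KO TER119- arrays and 6.82, 6.53, 6.89 and 6.66 on WT TER119- arrays. The populations did not overlap, and the difference was 3.13 (SE 0.14, adjusted p = 1.47e-11) in KO and 3.11 (SE 0.13, adjusted p = 4.75e-12) in WT arrays. Cdkn2d encodes p19, an INK4 inhibitor of CDK4 and CDK6. Its level was 10.65, 10.58 and 10.45 on KO TER119+ arrays and 10.56, 10.49, 10.55 and 10.41 on WT TER119+ arrays, against 7.94, 7.23, 6.79 and 7.38 on KO TER119- arrays and 6.79, 6.87, 8.02 and 7.20 on WT TER119- arrays. It was even across TER119+ arrays and scattered across TER119- arrays, and the difference was 3.23 (SE 0.26) in KO and 3.28 (SE 0.24) in WT arrays, 9.35-fold and 9.73-fold. Cdkn2c, for the related p18, was at 9.05, 8.73 and 8.81 on KO TER119+ arrays and 9.04, 8.84, 8.71 and 8.51 on WT TER119+ arrays, against 6.77, 6.69, 6.98 and 6.27 on KO TER119- arrays and 6.33, 6.0, 6.37 and 6.01 on WT TER119- arrays. Again no TER119- array reached the TER119+ levels, and the difference was 2.19 (SE 0.16) in KO and 2.60 (SE 0.15) in WT arrays.

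**Figure D3:**
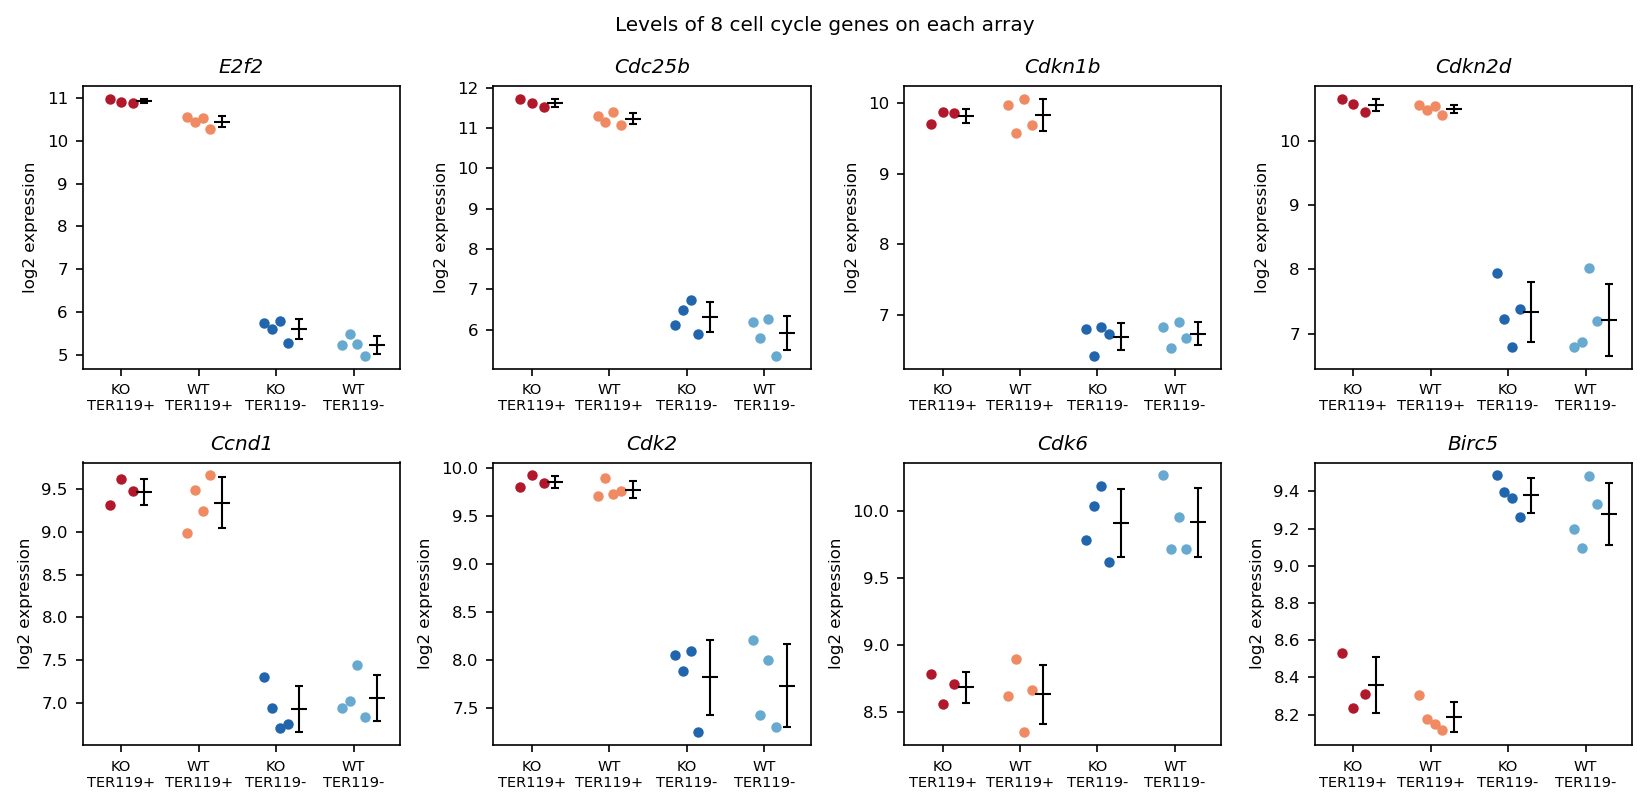
Log2 expression of 8 cell cycle genes on each array (points), with the group mean and SD beside them (bars), for KO TER119+ (n = 3), WT TER119+, KO TER119- and WT TER119- arrays (n = 4 each). E2f2, Cdc25b, Cdkn1b, Cdkn2d, Ccnd1 and Cdk2 are higher on every TER119+ array than on any TER119- array, and Cdk6 and Birc5 are lower.

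The G1 cyclins and kinases moved in different directions. Ccnd1 (cyclin D1) was at 9.32, 9.62 and 9.48 on KO TER119+ arrays and 8.98, 9.49, 9.25 and 9.66 on WT TER119+ arrays, against 7.30, 6.94, 6.70 and 6.75 on KO TER119- arrays and 6.94, 7.02, 7.45 and 6.83 on WT TER119- arrays. It rose by 2.55 (SE 0.18) in KO and 2.29 (SE 0.17) in WT arrays, and Ccnd3 (cyclin D3), the D cyclin known for setting the number of divisions of red cell precursors in mice, rose by 2.02 (SE 0.17) and 1.98 (SE 0.16). Ccnd2 (cyclin D2) did not pass, at -0.12 (interval -0.45 to 0.20) and -0.29 (interval -0.59 to 0.02), nor did Cdk4, at -0.10 in both genotypes. Cdk6, the other kinase partner of D cyclins, fell. It was at 8.79, 8.56 and 8.71 on KO TER119+ arrays and 8.62, 8.89, 8.35 and 8.66 on WT TER119+ arrays, against 9.79, 10.04, 10.19 and 9.62 on KO TER119- arrays and 10.27, 9.72, 9.96 and 9.72 on WT TER119- arrays. Every TER119+ array lay below every TER119- array, and the difference was -1.23 (SE 0.16, adjusted p = 7.28e-06) in KO and -1.29 (SE 0.15, adjusted p = 1.68e-06) in WT arrays.

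Of the genes that act at the start of replication, Cdk2 rose and its 2 cyclins parted. Cdk2 was higher by 2.04 in KO (SE 0.21) and in WT arrays (SE 0.20), 4.10-fold and 4.12-fold. Ccne1 (cyclin E1) was higher by 0.52 (SE 0.17, adjusted p = 0.018) and 0.79 (SE 0.16, adjusted p = 0.000494). Its call in KO arrays held in 23 of 25 alternative settings. Ccne2 (cyclin E2) fell, with 8.89, 8.94 and 9.02 on KO TER119+ arrays and 8.87, 8.67, 8.76 and 8.66 on WT TER119+ arrays, against 9.69, 9.53, 9.52 and 10.21 on KO TER119- arrays and 9.31, 9.90, 9.50 and 9.70 on WT TER119- arrays. The difference was -0.79 (SE 0.16) in KO and -0.86 (SE 0.15) in WT arrays, with no overlap of the populations. The cyclins of S phase and mitosis rose with their kinase: Ccna2 (cyclin A2) by 1.0 and 0.99, Ccnb2 (cyclin B2) by 0.57 and 0.55 and Cdk1 by 1.15 and 0.96 in KO and WT arrays, each with an SE of 0.09 to 0.11.

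The 8 genes that license origins split evenly, 4 higher and 4 not called in both genotypes. CDT1 and CDC6 load the MCM2 to MCM7 ring onto origins. Cdt1 was at 8.78, 8.65 and 8.86 on KO TER119+ arrays and 8.89, 8.86, 8.60 and 8.44 on WT TER119+ arrays, against 6.62, 6.75, 6.99 and 5.96 on KO TER119- arrays and 6.76, 5.93, 6.57 and 5.68 on WT TER119- arrays. The lowest TER119- value was on WT replicate 4 and the next on WT replicate 2 and KO replicate 4, and the difference was 2.18 (SE 0.25) in KO and 2.47 (SE 0.23) in WT arrays. Cdc6 did not pass, at 0.46 (interval -0.08 to 1.0) and 0.41 (interval -0.08 to 0.91).

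The 6 subunits of the MCM ring, which work as 1 complex, split: 3 rose and 3 did not pass. Mcm2 rose by 1.54 (SE 0.21) in KO and 1.65 (SE 0.19) in WT arrays, Mcm3 by 0.89 (SE 0.20) and 1.09 (SE 0.19), and Mcm7 by 0.79 (SE 0.16) and 0.81 (SE 0.15). Mcm4, Mcm5 and Mcm6 did not pass. Mcm5, for instance, was at 9.02, 9.0 and 9.06 on KO TER119+ arrays and 9.10, 9.03, 8.83 and 8.77 on WT TER119+ arrays, against 9.04, 9.11, 8.98 and 8.57 on KO TER119- arrays and 8.97, 8.68, 9.19 and 8.38 on WT TER119- arrays, so that the populations overlapped. Its difference was 0.10 (interval -0.26 to 0.46) in KO and 0.13 (interval -0.21 to 0.46) in WT arrays. That of Mcm6 was -0.10 (interval -0.35 to 0.16) and 0.06 (interval -0.17 to 0.30), and that of Mcm4 -0.25 (interval -0.65 to 0.15) and -0.15 (interval -0.52 to 0.22). The 2 genes with paired E2F matches in the sequences above, Mcm5 and Mcm6, were thus among the MCM genes that did not pass. Mcm3 and Mcm7, whose 2 E2F matches do not share bases, rose, as did Mcm2, with no E2F match in its window. Mcm4 had no window, and whether the matches bear on the differences was not tested.

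In DNA synthesis the 2 genes went opposite ways. Pcna, the sliding clamp of the replication fork, fell slightly but evenly. It was at 12.51, 12.53 and 12.45 on KO TER119+ arrays and 12.52, 12.40, 12.48 and 12.50 on WT TER119+ arrays, against 12.96, 12.94, 12.97 and 12.97 on KO TER119- arrays and 13.01, 13.03, 12.93 and 12.76 on WT TER119- arrays. The ranges did not meet, and the difference was -0.46 in KO (SE 0.09) and in WT arrays (SE 0.08). Rrm2, the regulated subunit of ribonucleotide reductase, which makes deoxynucleotides, rose by 1.01 (SE 0.21) and 1.05 (SE 0.19).

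Among the 10 genes of mitosis 6 rose and 2 fell in both genotypes. Cdc25b, the phosphatase that removes inhibitory phosphates from CDK1 before mitosis, was at 11.72, 11.61 and 11.53 on KO TER119+ arrays and 11.29, 11.15, 11.39 and 11.08 on WT TER119+ arrays, against 6.12, 6.49, 6.74 and 5.91 on KO TER119- arrays and 6.20, 5.81, 6.27 and 5.36 on WT TER119- arrays. The populations were far apart, and the lowest TER119- value lay below its array's median (5.43), so the same limit holds as for E2f2. The measured difference was 5.31 (SE 0.21, adjusted p = 4.21e-12) in KO and 5.32 (SE 0.19, adjusted p = 1.33e-12) in WT arrays. The proliferation antigen gene Mki67 rose by 1.49 (SE 0.15) and 1.70 (SE 0.13), the mitotic kinase genes Plk1 by 1.42 (SE 0.23) and 1.69 (SE 0.21) and Aurka by 1.17 (SE 0.15) and 1.20 (SE 0.14). Smaller increases were found for Cdc20, the activator of the anaphase-promoting complex, by 0.73 (SE 0.13) and 0.64 (SE 0.12), and for the topoisomerase gene Top2a, by 0.28 (SE 0.10, adjusted p = 0.0295) and 0.36 (SE 0.09, adjusted p = 0.00415). The call for Top2a in KO arrays held in 19 of 25 alternative settings.

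Both mitotic genes that fell belong to the control of chromosome attachment. Birc5 encodes survivin, a subunit of the chromosomal passenger complex, and was at 8.53, 8.24 and 8.31 on KO TER119+ arrays and 8.30, 8.18, 8.15 and 8.12 on WT TER119+ arrays, against 9.49, 9.40, 9.36 and 9.26 on KO TER119- arrays and 9.20, 9.10, 9.48 and 9.33 on WT TER119- arrays. The difference was -1.02 (SE 0.11) in KO and -1.09 (SE 0.10) in WT arrays, with no overlap. Aurkb, the kinase of the same complex, did not pass, at -0.24 (interval -0.78 to 0.29) and -0.17 (interval -0.66 to 0.33). Bub1, a spindle checkpoint kinase, was at 9.95, 10.08 and 10.08 on KO TER119+ arrays and 10.19, 10.11, 10.13 and 10.03 on WT TER119+ arrays, against 10.49, 10.61, 10.64 and 10.56 on KO TER119- arrays and 10.71, 10.61, 10.60 and 10.42 on WT TER119- arrays. It fell by 0.53 in KO (SE 0.09) and by 0.47 in WT arrays (SE 0.08), while the related Bub1b did not pass, at 0.03 (interval -0.38 to 0.45) and 0.22 (interval -0.17 to 0.61).

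For comparison with the promoter matches, 25 of all 38 genes rose in both genotypes. Of the 11 measured genes with TTTGAA 10 rose in both, Bub1b being the exception, with a median difference of 1.15 in KO and 1.01 in WT arrays. Of the 9 genes with an E2F motif 6 rose and Cdc6, Mcm5 and Mcm6 did not pass. With a CCAAT box, 19 of 24 rose, Pcna and Bub1 fell, and Bub1b, Mcm5 and Mcm6 did not pass. Cdk4, the gene with the KLF motif, was at -0.10. No test set these groups against the other genes, and the counts overlap, since Cdk1 and E2f2 carry 3 of the motifs. In E2f2 the E2F motif lies at the start shown above and TTTGAA at the other annotated start.

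Beyond the 40 genes, 122 further cell cycle genes in 3 lists were measured. Their counts stand beside 22.6% of all genes higher and 26.5% lower in KO and 23.5% higher and 29.1% lower in WT arrays, and the lists were not tested against each other. Of 43 genes of the replication fork and nucleotide supply, 8 rose and 23 fell in KO arrays and 11 rose and 21 fell in WT arrays, with medians of -0.42 and -0.33. Of 45 genes of mitosis and cytokinesis, 25 rose and 7 fell in KO and 29 rose and 7 fell in WT arrays, with medians of 0.54 and 0.75. Of 34 genes of G1/S control and cell cycle transcription, 13 rose and 12 fell in KO and 15 rose and 13 fell in WT arrays, with medians of 0.12 in both.

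At the fork, the histone chaperone gene Asf1b was at 11.06 to 11.13 on KO TER119+ and 10.99 to 11.14 on WT TER119+ arrays, against 8.28 to 9.19 on KO TER119- and 8.31 to 9.14 on WT TER119- arrays, a rise of 2.20 in KO and 2.30 in WT arrays. Fen1 and Lig1, which process and seal Okazaki fragments, rose by 2.10 and 0.85 in KO and by 2.05 and 1.06 in WT arrays, and Uhrf1, which couples DNA methylation to the fork, by 0.97 and 1.02. Gins2, a subunit of the GINS complex that holds the active helicase together, went the other way, with 7.63 to 8.03 on KO TER119+ and 7.68 to 7.98 on WT TER119+ arrays, against 10.16 to 10.44 on KO TER119- and 9.93 to 10.23 on WT TER119- arrays. It fell by 2.38 in KO and 2.22 in WT arrays. The single-strand binding subunit gene Rpa3 fell by 1.79 and 1.85, Orc3 of the origin recognition complex by 1.83 and 1.78, and the MCM-related Mcm8 by 1.65 and 1.44.

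In mitosis, Ccnf (cyclin F) rose by 2.53 in KO and 2.80 in WT arrays, the separase gene Espl1 by 2.59 and 2.64, Racgap1, which acts in cytokinesis, by 2.57 and 2.55, and the condensin gene Ncapd2 by 2.22 and 2.38. The kinesin gene Kif20b fell by 1.40 and 1.21, the checkpoint kinase gene Ttk by 1.26 and 1.18 and the kinetochore gene Ndc80 by 1.24 and 1.09. The fourth largest fall was that of Smc2 in KO arrays, by 0.49, and that of Ckap2 in WT arrays, by 0.50. In G1 control, the KIP inhibitor gene Cdkn1c (p57) was at 9.37 to 9.79 on KO TER119+ and 9.05 to 9.93 on WT TER119+ arrays, against 5.46 to 6.23 on KO TER119- and 5.67 to 6.29 on WT TER119- arrays, a rise of 3.69 and 3.42. The antiproliferative gene Btg2 rose by 2.84 and 3.04, and Mybl2, a transcription factor of dividing cells, by 1.60 and 1.82. The fourth largest rise was that of Ccng2 in KO arrays, by 1.77, and that of Tfdp2, an E2F partner, in WT arrays, by 1.44. Ccng1 (cyclin G1) fell by 2.16 in both, Cks1b, a small CDK-binding protein, by 1.91 and 1.92, and Ccnh and Cdk7, which form the CDK-activating kinase, by 1.60 and 1.50 in KO and 1.46 and 1.41 in WT arrays.

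The second question was whether the cell cycle genes differed between KO and WT within TER119+ cells. In limma's test 0 of the 38 genes passed, where 1.02% of all genes passed. At an unadjusted p under 0.05 there was 1 of 38 (E2f2), where 5.33% of all genes passed. The median difference was 0.08, beside -0.01 for all genes, and it was -0.01 with the replicate number as a block. Of the differences 31 of 38 were above 0, where 9376 of all 19938 genes were. The signs come from the same arrays and are not independent. The 95% intervals of the 38 genes lay between -0.68 and 0.85. Arrays of KO and WT did not overlap for 5 genes (E2f2, E2f4, E2f8, Cdc25b and Ccne2), all higher in KO. Of all genes 5.29% had KO arrays wholly above WT arrays.

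**Figure D4:**
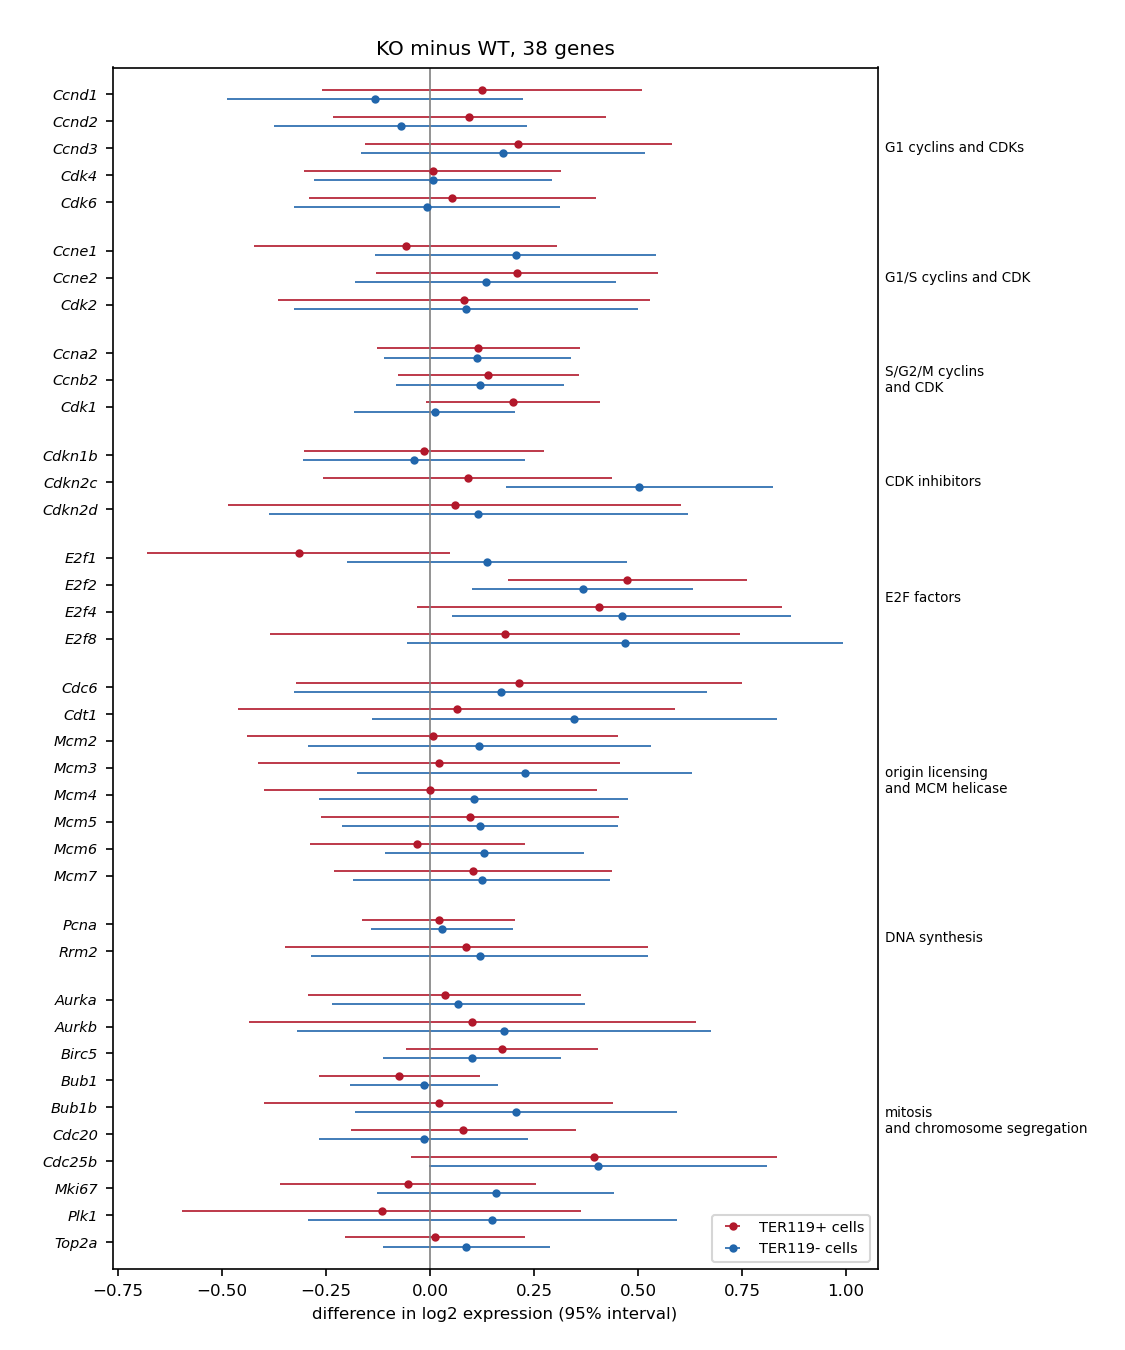
Difference in log2 expression, KO minus WT (x axis), for each of the 38 genes grouped by role, with the 95% interval of the limma fit, in TER119+ cells and in TER119- cells. All points lie between -0.32 and 0.50, no gene passed the threshold in either population, and the intervals reach 0 for every gene but E2f2 (both populations), and Cdkn2c and E2f4 (TER119- cells).

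E2f2 had the smallest p in TER119+ cells. The levels above show all 3 KO TER119+ arrays (10.88 to 10.98) over all 4 WT TER119+ arrays (10.27 to 10.56), and the difference was 0.47 (SE 0.14, interval 0.19 to 0.76, adjusted p = 0.191). It passed the threshold in 3 alternative fits: with only the TER119+ arrays (adjusted p = 0.0358), with array quality weights (0.00899) and without the 3 TER119- arrays that stand apart (0.0113). Over all alternatives its adjusted p ran between 0.00899 and 0.665. E2f4 was at 10.78, 10.81 and 10.87 on KO TER119+ arrays, against 10.56, 10.29, 10.46 and 10.34 on WT TER119+ arrays, with a difference of 0.41 (interval -0.03 to 0.85). Cdc25b, with its values given above, differed by 0.39 (interval -0.04 to 0.83).

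The other 3 genes of smallest p overlapped. Cdk1 was at 9.85, 9.56 and 9.74 on KO TER119+ arrays, against 9.63, 9.47, 9.45 and 9.51 on WT TER119+ arrays, a difference of 0.20 (interval -0.01 to 0.41, adjusted p = 0.992). E2f1 was at 7.57, 7.13 and 7.25 on KO TER119+ arrays, against 7.98, 7.54, 7.71 and 7.29 on WT TER119+ arrays, a difference of -0.32 (interval -0.68 to 0.05), the lowest of the 38. Birc5 differed by 0.17 (interval -0.06 to 0.40). For the MCM genes the differences lay between -0.03 (Mcm6) and 0.10 (Mcm7), and for the CDK inhibitors between -0.01 (Cdkn1b) and 0.09 (Cdkn2c).

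Of the 122 further genes, 2 passed in TER119+ cells, both higher in KO, where 0.903% of all genes passed as higher: Orc1, in the replication list, and Ccng2, in the G1/S list. Orc1 encodes the largest subunit of the origin recognition complex, which marks the origins on which the MCM ring is loaded. It was at 8.86, 8.57 and 8.63 on KO TER119+ arrays, against 7.36, 7.09, 6.88 and 6.70 on WT TER119+ arrays, with more than 1 log2 unit between the groups. The difference was 1.68 (SE 0.21, adjusted p = 0.000137), 3.20-fold. The genes on either side of Orc1 on chromosome 4, chosen after its value was seen, did not pass: Prpf38a differed by 0.16 (SE 0.11) and Cc2d1b by 0.31 (SE 0.21). Ccng2 encodes cyclin G2, an atypical cyclin known from cells that stop dividing. It was at 8.37, 8.33 and 8.41 on KO TER119+ arrays, against 7.28, 7.20, 7.63 and 7.30 on WT TER119+ arrays, and the difference was 1.02 (SE 0.14, adjusted p = 0.000386), 2.02-fold. Both calls held under all alternatives run, with adjusted p up to 0.00218 for Orc1 and 0.00437 for Ccng2. The promoter stretches of these genes printed above hold no CCACACCC. Other CACCC-type sequences were not searched for in the windows. The printed Orc1 stretch holds the letters CACCC. On either strand these letters also occur in the printed stretches of Cdc25b, E2f2, Mcm6 and Mki67. Their share over all genes was not counted.

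Beside these results stand the marker values of the same arrays. The mean of 8 megakaryocyte and platelet markers was 8.66, 8.47 and 8.86 on KO TER119+ arrays, against 9.46, 9.31, 9.29 and 9.55 on WT TER119+ arrays. In limma's test 0 of the 8 passed, with 5 at an unadjusted p under 0.05, and every KO TER119+ array lay below every WT TER119+ array for all 8, where 4.81% of all genes did so. Of 12 macrophage markers 1 passed: Vsig4 was at 4.28, 4.55 and 4.22 on KO TER119+ arrays, against 5.77, 5.99, 5.11 and 5.38 on WT TER119+ arrays (adjusted p = 0.000491). Of the 12 macrophage differences 6 were above and 6 below 0, with a median of -0.03. The mean of 9 stromal and stellate markers was 7.07, 7.38 and 6.63 on KO TER119+ arrays, against 6.06, 7.01, 6.30 and 7.28 on WT TER119+ arrays, with 8 of 9 differences above 0 and a median of 0.50. The neutrophil mean was 5.72, 5.38 and 5.24 on KO TER119+ arrays, against 5.4, 5.23, 5.04 and 5.02 on WT TER119+ arrays, with 11 of 12 differences above 0 and a median of 0.19. In limma's test 0 of the 9 stromal and 0 of the 12 neutrophil markers passed, with 1 and 2 at an unadjusted p under 0.05. The part of these cell types in the results was not tested. The hepatocyte mean was 11.34, 11.34 and 10.90 on KO TER119+ arrays, against 10.75, 11.43, 10.86 and 11.38 on WT TER119+ arrays, and with it as a covariate E2f2 differed by 0.49.

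In TER119- cells, too, 0 of the 38 genes passed in limma's test, where 0.0853% of all genes passed. At an unadjusted p under 0.05 there were 3 of 38 (Cdkn2c, E2f2 and E2f4), where 7.56% of all genes passed. The median difference was 0.12, beside -0.02 for all genes, and the 95% intervals lay between -0.49 and 0.99. Of the differences 32 of 38 were above 0, where 9219 of all 19938 genes were. No gene had KO arrays wholly above or below WT arrays, against 2.63% of all genes. With the hepatocyte mean as a covariate the median was -0.03, and without the 3 arrays that stand apart it was -0.01. The hepatocyte mean was 6.59, 5.92, 5.65 and 7.02 on KO TER119- arrays, against 5.81, 6.90, 7.35 and 8.0 on WT TER119- arrays. All 18 hepatocyte differences were below 0 (median -0.80), and 15 of 17 erythroid differences were above 0 (median 0.23). In limma's test 0 of either list passed. The part of these cell types in the results was not tested.

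The 6 genes of smallest p in TER119- cells were Cdkn2c, E2f2, E2f4, Cdc25b, E2f8 and Cdt1. Cdkn2c, at 6.77, 6.69, 6.98 and 6.27 on KO TER119- arrays, against 6.33, 6.0, 6.37 and 6.01 on WT TER119- arrays, differed by 0.50 (SE 0.15, interval 0.18 to 0.82, adjusted p = 0.615). Only KO replicate 4 lay within the WT range. E2f2 differed by 0.37 (interval 0.10 to 0.63, adjusted p = 0.636), with KO replicate 4 again among the WT values. E2f4 was at 8.72, 8.94, 9.31 and 8.61 on KO TER119- arrays, against 8.95, 8.08, 8.72 and 7.97 on WT TER119- arrays, a difference of 0.46 (interval 0.05 to 0.87) that was 0.18 with the hepatocyte covariate and 0.15 without the 3 arrays. E2f8 was at 9.18, 9.48, 9.72 and 8.95 on KO TER119- arrays, against 9.39, 8.68, 9.42 and 7.97 on WT TER119- arrays, a difference of 0.47 (interval -0.05 to 0.99) that was 0.14 and 0.06 under these settings. Cdc25b differed by 0.40 (0.14 and 0.21 under the same settings) and Cdt1 by 0.35 (0.02 and 0.13). Of the 122 further genes 0 passed in TER119- cells in limma's test. At an unadjusted p under 0.05 there were 5 of 43, 4 of 45 and 3 of 34 genes of the replication, mitosis and G1/S lists. Of all genes 7.56% passed at that level. In these lists 40, 44 and 28 differences were above 0, with medians of 0.18, 0.19 and 0.11, beside -0.02 for all genes.

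In TER119- cells single arrays lay at the ends for many of the genes. WT replicate 4 was the lowest of the 8 TER119- arrays for 24 of the 38 genes, and KO replicate 3 was the highest for 18. On the erythroid markers WT replicate 4 was also lowest (7.69) and KO replicate 3 highest (8.55), and on the hepatocyte markers WT replicate 4 was highest (8.0) and KO replicate 3 lowest (5.65). The median SD of the 38 genes within a group was 0.28 in both KO TER119- and WT TER119- arrays, against 0.15 and 0.21 for all genes. In TER119+ cells it was 0.09 in KO and 0.12 in WT arrays, against 0.11 and 0.14 for all genes. The genotypes also differed in sex among TER119- arrays, with 3 female and 1 male KO and 4 male WT arrays as read from Xist and Y-linked genes, and 0 of the 38 genes passed in either population once sex was added to the model.

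**Figure D5:**
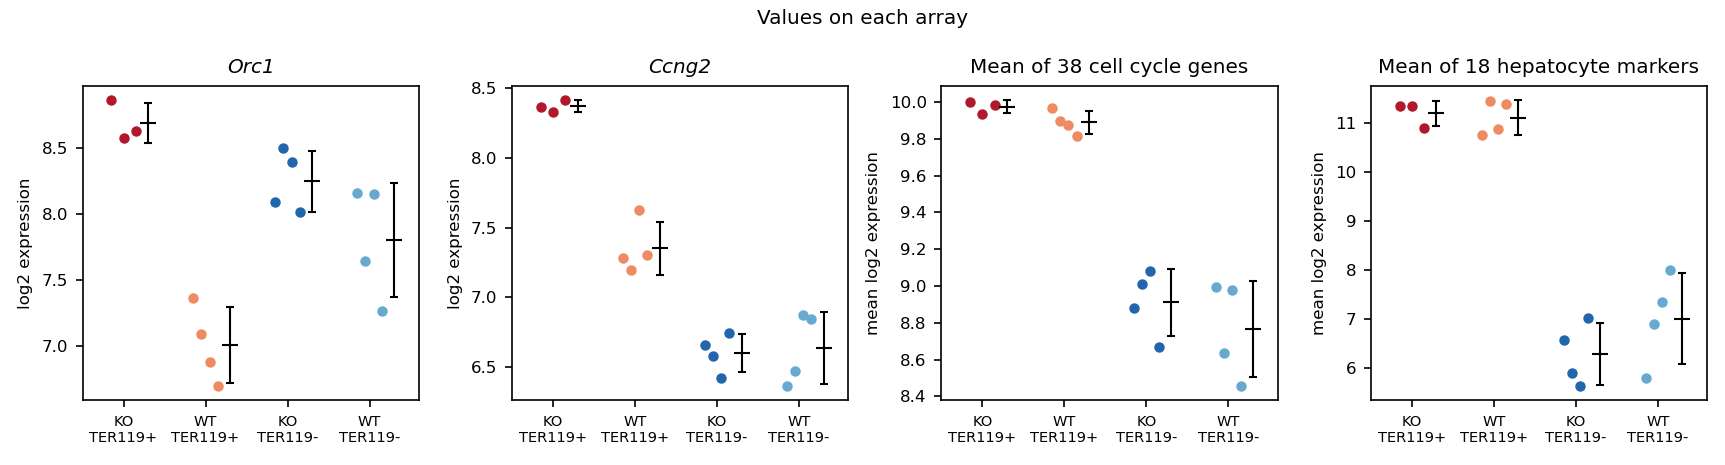
Log2 expression of Orc1 and of Ccng2, and the mean log2 expression of the 38 cell cycle genes and of 18 hepatocyte markers, on each array (points) with the group mean and SD (bars); KO TER119+ n = 3, the other groups n = 4. Orc1 and Ccng2 separate KO from WT in TER119+ cells. In TER119- cells the lowest mean of the cell cycle genes (8.46) is on the array with the highest hepatocyte mean (8.0). WT TER119- replicate 3, with the next highest hepatocyte mean (7.35), has a cell cycle mean of 8.98.

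The difference between the KO effects in TER119+ and in TER119- cells was tested for each gene. Of the 38 genes 0 passed and 0 had an unadjusted p under 0.05, where 0.436% and 4.27% of all genes did. The lowest value was that of E2f1, -0.45 (interval -0.95 to 0.04, adjusted p = 0.999), followed by Cdkn2c at -0.41 (interval -0.89 to 0.06), and the highest that of Ccnd1, 0.26 (interval -0.27 to 0.78). Ccne1 was at -0.26, Mki67 at -0.21 and Cdk1 at 0.19, all with intervals that include 0. E2f2 differed by 0.11 (interval -0.28 to 0.50) between the populations. Of the further genes Ccng2 passed: it was at 6.66, 6.58, 6.42 and 6.75 on KO TER119- arrays, against 6.37, 6.47, 6.87 and 6.85 on WT TER119- arrays, a difference of -0.04 (SE 0.13), so that the KO effect was 1.05 larger in TER119+ cells (SE 0.19, adjusted p = 0.0134). Orc1 was at 8.09, 8.50, 8.39 and 8.02 on KO TER119- arrays, against 8.16, 7.64, 8.15 and 7.26 on WT TER119- arrays, a difference of 0.44 (SE 0.19, adjusted p = 0.653). Its effect was 1.23 larger in TER119+ cells (SE 0.28), which missed the threshold (adjusted p = 0.0903). This difference passed in 5 alternative settings and missed in 20, with adjusted p between 0.00596 and 0.345. In WT cells Orc1 was lower on TER119+ than on TER119- arrays by 0.79 on the log2 scale (SE 0.19, adjusted p = 0.00218), and in KO cells it was at 0.44 (SE 0.21, adjusted p = 0.0921).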

How the data were processed

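RNA from 15 samples was measured on Affymetrix MoGene 1.0 ST arrays. The deposited table holds log2 values per probe set, made with RMA in Partek per the submitters' processing notes, with versions not given in the sources used here. This method subtracts background, gives the probe signals of all arrays 1 distribution and narrows differences between dim signals. The deposited values per probe set do not share 1 distribution: their medians ran from 5.28 to 5.43 over the arrays. Of 35399 probe sets, 21789 had a single gene symbol in the platform's gene table, 1621 had several and 11989 are unnamed here. Per gene the single-symbol probe set of highest mean was kept, which left 19938 genes without a filter on dim genes.

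Group means were fitted to all 15 arrays with limma 3.58.1 (lmFit and eBayes, R 4.3.3), with 11 residual and 4.91 prior degrees of freedom. P-values are 2-sided and adjusted over all genes by Benjamini and Hochberg, with a threshold of 0.05. The fit was tested on simulated data. Differences carry the model's standard error (SE) or 95% interval, and levels the SD. The number of arrays limits the precision. The labels do not say whether replicates were separate embryos, so the p-values rest on the spread among these samples, and that spread may be technical. The labels name no batch.

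The members and lists were chosen with earlier results of these data known. Per-array values are given for the 6 members of largest difference past the threshold in each direction or, where none passed, the 6 of smallest p, and some others are named as examples after their values were seen. Of the further lists the 4 genes of largest difference per list and direction are named. Alternatives were a replicate block, only the groups compared, another variance model, array weights, centring, quantile normalization, a filter on dim genes, the mean of probe sets, sex, the hepatocyte mean, 3 arrays left out and each array left out in turn. Promoter sequences are from RefSeq, GRCm38.p6, and no windows were used for Aurkb, Ccna2, Ccnd1, Ccnd2, Ccne2, E2f4 and Mcm4.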

Additional observations from a re-analysis of the deposited data

Results flagged for a closer look

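The KO effect on Ccng2 differed between the populations: it was 1.05 larger on the log2 scale in TER119+ than in TER119- cells (SE 0.19, adjusted p = 0.0134 in limma's test of the difference). KO arrays exceeded all WT arrays in TER119+ cells and overlapped them in TER119- cells. The adjusted p ran between 0.00323 and 0.0559 over the alternatives and lay above 0.05 with sex as a factor (0.0535) and without KO TER119+ replicate 3 (0.0559).

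Bub1b on WT TER119+ replicate 4 was at 9.65, below the other 3 arrays of its group, which lay between 9.83 and 9.85. It was flagged because this gap was 0.90 of the range of the group. The group SD was small, at 0.09, where the median of the 38 genes was 0.12. No other value was so flagged in 114 sets of 4 arrays (38 genes in 3 groups), where chance gives about 5.7. The same array was the lowest of the 7 TER119+ arrays for 18 of the 38 genes.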

How the results depend on the processing

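In TER119+ cells the count of cell cycle genes passing between KO and WT was 0 as reported and 1 (E2f2) with only the arrays of the groups compared, with array quality weights and without the 3 arrays that stand apart. In TER119- cells and for the difference of the KO effects it was 0 under every alternative run. Between TER119+ and TER119- cells 28 to 32 of 38 passed in KO and 30 to 33 in WT arrays, and 27 to 30 and 30 to 31 with single arrays left out. The median in WT arrays (0.98) was 0.77 with array weights and 0.63 without the 3 arrays, and with single arrays left out it ran between 0.81 (without WT TER119- replicate 4) and 1.02. In KO arrays (0.84) it ran between 0.70 and 0.94. The small KO difference of Ccng2 in TER119- cells (-0.04) turned positive with array weights (0.0248), with centred arrays (0.00387) and with the hepatocyte covariate (0.0904), and ran between -0.129 and 0.0391 with single arrays left out. The cause was not tested.

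Most same-numbered arrays did not deviate together (correlations of their deviations between -0.38 and 0.65), so the numbers are not taken as pairs. The exception was replicate 4 of the KO TER119- and WT TER119- arrays, at 0.65. The next highest correlation was 0.25, for replicate 3 of the KO TER119+ and WT TER119+ arrays. The cause of the shared deviation of the replicate 4 TER119- arrays was not tested. With the replicate block 0 of the 38 genes passed between KO and WT in either population, the median in TER119+ cells was -0.01 in place of 0.08, and 29 (KO) and 30 (WT) passed between the populations.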
